A study of Gallus gallus with 2 samples.

Results

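CTCF is a zinc finger protein that recognises a DNA sequence through an array of zinc fingers, and it is known for blocking enhancers at insulators and for stopping the cohesin ring at the bases of chromatin loops. The chicken karyotype holds a few large macrochromosomes and many microchromosomes, which are rich in genes and in G and C bases, and red cells of birds keep their nucleus. The peaks described here lie on chromosomes 22 to 28, the highest numbered microchromosomes with a sequence of their own in the deposited peak lists. By background knowledge, chicken chromosome 27 carries the HOXB cluster of body axis genes, and chromosomes 25 and 27 carry large families of feather keratin genes. No peak was placed on a gene, because the genome build of the positions is not given in the sources used here.

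Members were all rows of both lists whose sequence name was chromosome 22, 23, 24, 25, 26, 27 or 28. They numbered 1106 of 21358 peaks in the 10 day list (5.18%) and 497 of 5830 in the 5 day list (8.52%). Peaks on sequence named as random for chromosome 22, 25 or 28 stayed out; they numbered 2, 7 and 3 in the 10 day list and 0, 3 and 3 in the 5 day list. The last peak ends lay between 2.00 Mb on chromosome 25 and 6.38 Mb on chromosome 24, against 6.96 Mb on chromosome 21. Chromosome 16, whose last peak ended at 0.419 Mb, was shorter in these lists than any of the 7, so the 7 are the smallest numbered chromosomes apart from that one.

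The study mapped CTCF by chromatin immunoprecipitation and sequencing in Gallus gallus red blood cells labelled 10 day old and 5 day old, with 1 library at each age and the same Millipore antibody for both. The labels give no strain, sex or number of animals and do not say whether days were counted before or after hatching. The shared growth and treatment fields of both libraries describe mononuclear blood cells taken from a density gradient and stimulated in culture with PMA and Io, which differs from the cell type label. A peak list has no expression values, so the cell type was not checked against marker genes. The question put by the design is where CTCF binds at the 2 stages. With 1 library per age no test compares the ages, and every interval below is a 95% interval that covers counting error only. The intervals take peaks as independent, while counts along the chromosomes varied more than their mean, so they are probably too narrow. All peaks were 399 bp wide, and the read depth behind them is unknown.

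Chromosomes 22 to 28 held 33.7 peaks per Mb in the 10 day list (interval 31.8 to 35.8) and 15.2 per Mb in the 5 day list (13.9 to 16.6), counted up to the last peak end of either list. At 10 days this was 1.25 times the 27 per Mb of chromosomes 11 to 21 (1.17 to 1.34) and 1.92 times the 17.6 per Mb of chromosomes 1 to 5 (1.80 to 2.04). At 5 days it was 1.60 times the 9.50 per Mb of chromosomes 11 to 21 (1.44 to 1.77) and 4.49 times the 3.37 per Mb of chromosomes 1 to 5 (4.07 to 4.96). The smallest chromosomes were therefore denser than the larger microchromosomes at both ages, by the larger ratio in the 5 day list. The size of the 10 day ratio depended on the length of the list. With its 5809 highest scoring peaks alone it was 1.44, at the lower end of the 5 day interval, and against chromosomes 1 to 5 it was 2.85.

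**Figure D1:**
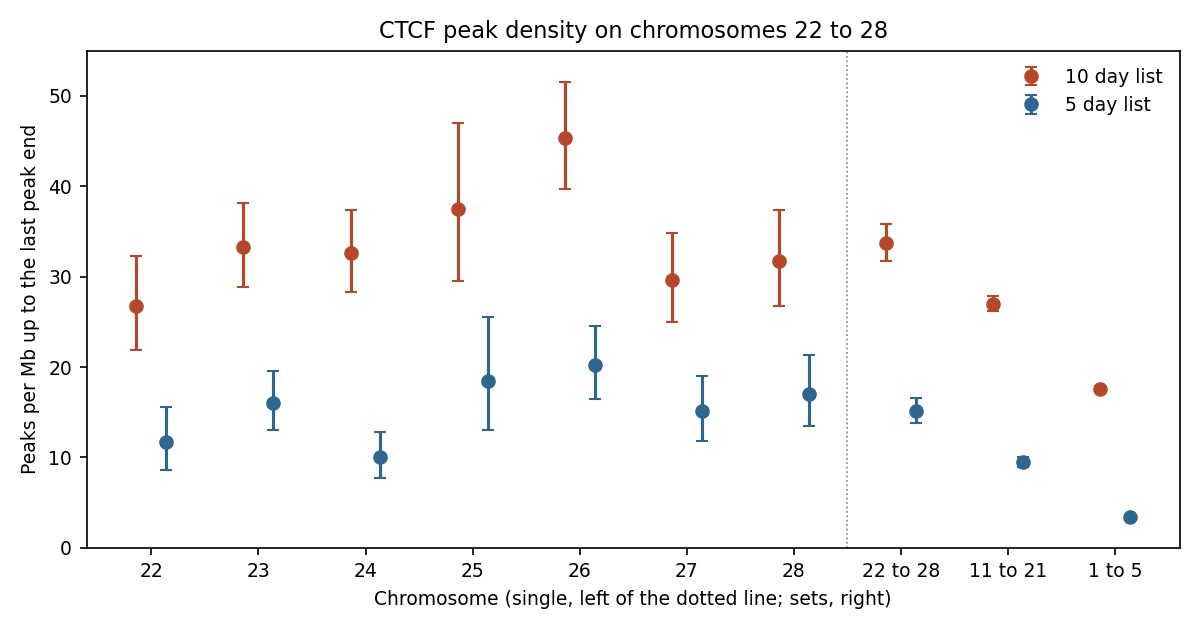
Peaks per Mb on each of chromosomes 22 to 28 and on 3 sets of chromosomes, in the 10 day list (red) and the 5 day list (blue); bars are exact Poisson 95% intervals. Chromosome 26 was highest at both ages with 45.3 and 20.2 peaks per Mb, and chromosome 24 was lowest at 5 days with 10.0.

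The 7 chromosomes did not form a single level. At 10 days the order was chromosome 26 with 45.3 peaks per Mb (39.7 to 51.6), chromosome 25 with 37.5 (29.5 to 47.0), chromosome 23 with 33.3 (28.8 to 38.2), chromosome 24 with 32.6 (28.3 to 37.3), chromosome 28 with 31.7 (26.7 to 37.3), chromosome 27 with 29.6 (25 to 34.9) and chromosome 22 with 26.7 (21.8 to 32.3). The interval of chromosome 26 lay above those of all the others except chromosome 25, and neighbours in the order had overlapping intervals. At 5 days the order was chromosome 26 with 20.2 (16.5 to 24.5), chromosome 25 with 18.5 (13 to 25.5), chromosome 28 with 17.1 (13.5 to 21.3), chromosome 23 with 16.1 (13 to 19.6), chromosome 27 with 15.1 (11.9 to 19), chromosome 22 with 11.7 (8.57 to 15.6) and chromosome 24 with 10.0 (7.73 to 12.8). Neighbours again overlapped, and the interval of chromosome 26 lay above those of chromosomes 22 and 24 only. Chromosome 24 lay below chromosomes 23, 25, 26 and 28 by its interval. Density did not follow length within the 7, since chromosome 22, with its last peak end at 3.93 Mb, was sparser at both ages than chromosome 26, which ended at 5.10 Mb.

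Set against chromosomes 11 to 21, chromosome 26 had 1.68 times their density at 10 days (1.46 to 1.92) and 2.13 times at 5 days (1.72 to 2.60). Chromosome 22 was not distinguishable from them at either age, with 0.990 times at 10 days (0.807 to 1.20) and 1.23 times at 5 days (0.898 to 1.65). Chromosome 24 lay above them at 10 days by its interval, with 1.21 times (1.05 to 1.39), while its 5 day value of 1.06 (0.809 to 1.36) was within counting error of 1. Outside a 750 kb stretch, described further on and chosen after its values were seen, chromosome 24 had 27.2 peaks per Mb at 10 days. Leaving out its fullest 10 day bins lowers this value in any case. Chromosomes 11 to 21, at 27 per Mb, kept theirs, so the 2 values are not a like comparison. Chromosomes 27 and 28, each taken whole, showed the opposite order of the ages. Their 10 day ratios of 1.10 (0.922 to 1.30) and 1.17 (0.987 to 1.39) had intervals that included 1, and their 5 day ratios of 1.59 (1.24 to 2.02) and 1.80 (1.41 to 2.26) did not. The 10 day ratios depended on the length of the list: with its 5809 highest scoring peaks alone they were 1.54 on chromosome 27 and 1.43 on chromosome 28, and 1.19 on chromosome 24.

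The 10 day list was the longer one on each of the 7 chromosomes, but by less, for the 7 together, than on either set of larger chromosomes. Its peaks outnumbered those of the 5 day list by 2.23 times on chromosomes 22 to 28 (2.0 to 2.48), against 2.84 times on chromosomes 11 to 21 (2.67 to 3.03), 5.21 times on chromosomes 1 to 5 (4.97 to 5.46) and 3.66 times over the whole lists. The ratio on chromosomes 22 to 28 was 0.783 of that on chromosomes 11 to 21 (0.691 to 0.887) and 0.427 of that on chromosomes 1 to 5 (0.380 to 0.481). Chromosome 28 had the lowest value, with 143 peaks at 10 days and 77 at 5 days (1.86 times, 1.40 to 2.48), and chromosome 27 was close, with 143 and 73 (1.96 times, 1.47 to 2.63). Chromosome 25 had 75 and 37 peaks (2.03 times), chromosome 23 had 201 and 97 (2.07 times), chromosome 26 had 231 and 103 (2.24 times) and chromosome 22 had 105 and 46 (2.28 times). Chromosome 24 had the highest value, with 208 peaks at 10 days and 64 at 5 days (3.25 times, 2.44 to 4.37). That was 1.57 times the ratio of the other 6 together (1.15 to 2.16), a contrast that picks the highest of the 7. Without the 750 kb stretch described further on, the contrast was 1.25 times (0.899 to 1.76). That stretch takes in the fullest 10 day bins of chromosome 24, so a lower contrast without it followed from the choice. Which list is longer depends on its score limit: with the 10 day list limited to scores that left 5809 peaks, chromosomes 22 to 28 held 381 of them against the 497 at 5 days, a ratio of 0.767. In that list the ratio was 0.847 on chromosomes 11 to 21 and 1.21 on chromosomes 1 to 5.

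Peaks shared between the ages were next separated from the rest, a shared peak being one that a peak of the other list overlapped by at least 1 bp. On chromosomes 22 to 28, 255 of the 1106 peaks at 10 days were shared, a share of 23.1% (20.6 to 25.7), where the whole 10 day list had 15.8%. Of the 497 peaks at 5 days 256 were shared, 51.5% (47.0 to 56.0), where the whole 5 day list had 57.6%. Outside the 7 chromosomes the shares were 15.4% at 10 days (14.9 to 15.9) and 58.2% at 5 days (56.8 to 59.5). The 10 day peaks of the smallest chromosomes were thus matched more often than those outside them, and their 5 day peaks less often, with intervals that lay apart at both ages. Chromosomes 11 to 21 differed from the list in the same directions, with 19.2% at 10 days (18.0 to 20.5) and 54.6% at 5 days (51.9 to 57.3). The 10 day interval of chromosomes 22 to 28 lay just above theirs, and the 5 day intervals overlapped.

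High scoring peaks are shared more often, so each share was also set against the one expected from scores alone. Scores are whole numbers deposited by the authors with no stated meaning, and 5 parts of each list were formed from them, with equal scores kept in one part. Given the parts in which they fell, 19.4% of the 10 day peaks on chromosomes 22 to 28 would have been shared, below the interval of the 23.1% observed, and 57.0% of the 5 day peaks, above the interval of the 51.5% observed. The 2 observed shares rest on nearly the same sites, 255 and 256 peaks, so they are not separate results. They are tied to the ratio of peak numbers, 2.23 here and 3.66 over the whole lists. The expected values also take no account of how dense the other list is on a chromosome. Among 10 day peaks with scores of 31 and more, the uppermost part, 190 of the 305 peaks here were shared (62.3%, 56.6 to 67.8), against 54.7% outside the 7 chromosomes. In the middle part, with scores of 24 to 26, 25 of 276 were shared (9.06%, 5.95 to 13.1), against 5.11%. The other 3 parts of the 10 day list were also above the rest, within their intervals. In the 5 day list the widest gap was in the part with scores of 28 to 42, where 58 of 86 peaks here were shared (67.4%, 56.5 to 77.2), against 79.0% elsewhere. Among 5 day scores of 43 and more there was no gap, with 103 of 111 shared here (92.8%, 86.3 to 96.8) and 92.8% elsewhere.

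**Figure D2:**
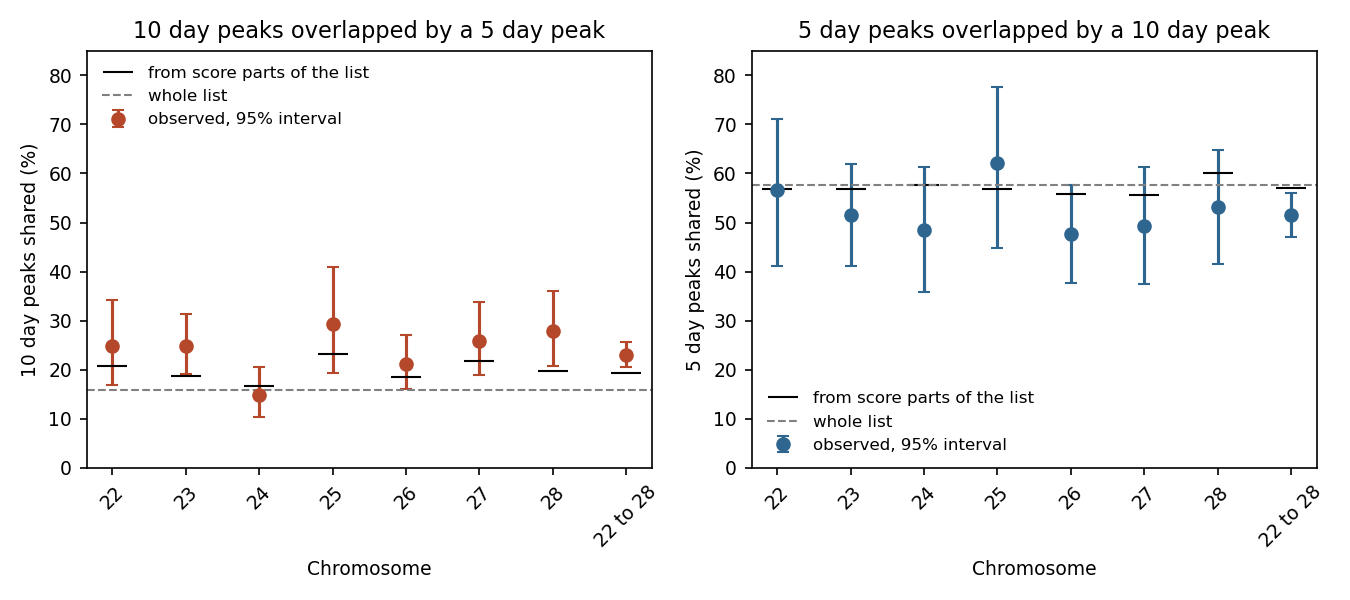
Percentage of 10 day peaks (left) and 5 day peaks (right) overlapped by a peak of the other list on each chromosome and on the 7 together; bars are exact Clopper-Pearson 95% intervals, dashes the share expected from the score parts, and the dashed line the whole list. At 10 days 6 of the 7 chromosomes lay above the whole list at 15.8%, and at 5 days 6 of the 7 lay below it at 57.6%.

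By chromosome, the 10 day share was 29.3% on chromosome 25 (22 of 75), 28% on chromosome 28 (40 of 143), 25.9% on chromosome 27 (37 of 143), 24.9% on chromosome 23 (50 of 201), 24.8% on chromosome 22 (26 of 105) and 21.2% on chromosome 26 (49 of 231). The intervals of these 6 lay above the 15.8% of the whole list. Chromosome 24 had 14.9% (31 of 208, 10.4 to 20.5), level with the list. The score parts alone gave between 16.8% on chromosome 24 and 23.3% on chromosome 25, and on chromosomes 23 and 28 the interval of the observed share lay above that value. With 20 score parts, added after seeing the data, the expected 20.3% of chromosome 23 and 22.2% of chromosome 28 were inside it. The direction turned on chromosomes 24 and 25, and stayed on the others. Chromosome 25 then had 30.5% expected, above the 29.3% observed, and chromosome 24 had 13.8% expected, below the 14.9% observed. At 5 days chromosome 25 was highest with 62.2% (23 of 37) and chromosome 26 lowest with 47.6% (49 of 103), and no single chromosome had an interval that excluded the 57.6% of the list. The place of chromosome 25 at both ages leans on the 33 kb cluster described further on. In it 9 of 12 peaks were shared at 10 days and 10 of 10 at 5 days, out of the 22 and 23 shared peaks of that chromosome.

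Shared and unmatched peaks were spread differently over the chromosome classes. Shared peaks, which are nearly the same positions in both lists, had a density here of 7.78 per Mb counted in the 10 day list and 7.81 per Mb counted in the 5 day list. That was 3.99 times the shared density of chromosomes 1 to 5 by the 10 day count (3.47 to 4.57) and 4.01 times by the 5 day count (3.49 to 4.60), and 1.5 times that of chromosomes 11 to 21 by either count. Unmatched 10 day peaks, at 26.0 per Mb here, were 1.66 times as dense as on chromosomes 1 to 5 (1.55 to 1.78) and 1.19 times as dense as on chromosomes 11 to 21 (1.10 to 1.28). Unmatched 5 day peaks, at 7.35 per Mb here, were 5.14 times as dense as on chromosomes 1 to 5 (4.44 to 5.94) and 1.71 times as dense as on chromosomes 11 to 21 (1.46 to 1.98). Against chromosomes 1 to 5, the unmatched 10 day peaks thus had a lower density ratio than the shared ones, with intervals that lay apart, while in the 5 day list the intervals of the 2 classes overlapped.

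Matched peaks lay close together. Among 253 pairs in which each peak was the nearest to the other, the median difference between starts was 41 bp (quartiles 16 and 71) and the largest 325 bp, where the overlap itself keeps them under 399 bp. The 2 starts were identical in 3 pairs and within 10 bp in 39. Pairs on chromosome 22 lay closest, with a median of 28.5 bp over 26 pairs, and those on chromosome 24 farthest, with 61 bp over 31 pairs and none within 10 bp. Across the 253 pairs the scores of the 2 lists had a Spearman correlation of 0.54. It describes sites read from the same pair of libraries, which are not replicates.

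Scores were used as ranks within their own list, as percentiles with equal scores given their mean rank. In the 10 day list the peaks of chromosomes 22 to 28 had a median percentile of 59.1 (interquartile range 27 to 82.4), from 51.0 on chromosomes 24, 26 and 28 to 65.5 on chromosome 27. These percentiles stand for scores of 26, 25 and 27, so they lie only a step or so of tied scores apart. Chromosomes 11 to 21 and chromosomes 1 to 5 both had 51.0, a score of 25. In the 5 day list the median of chromosomes 22 to 28 was 46.4 (22.6 to 77.4), from 43.7 on chromosome 22 to 52.5 on chromosome 24. Chromosomes 11 to 21 had 51.5 and chromosomes 1 to 5 had 49.1. Shared peaks had median scores of 44 at 10 days and 37 at 5 days, unmatched peaks of 24 and 16, and the 2 score scales have no stated relation. Many 10 day scores are tied near the lower limit of 22, and 15.7% of the peaks here had that score, against 19.3% of the list.

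The highest scoring 10% of the 10 day list, with scores of 40 and more, took in 159 of the 1106 peaks on chromosomes 22 to 28 (14.4%, 12.4 to 16.6), where this class, with its ties, holds 10.0% of all listed peaks. Chromosomes 11 to 21 had 11.5% (10.5 to 12.5) and chromosomes 1 to 5 had 6.98% (6.51 to 7.48). In the 5 day list the highest 10%, with scores of 58 and more, took in 50 of 497 (10.1%, 7.56 to 13), level with the 9.74% of the whole list. Relative to their own list, high scores were thus overrepresented here at 10 days and not detectably so at 5 days. By density, high scoring peaks exceeded both larger sets at both ages. They were 1.56 times as dense as on chromosomes 11 to 21 at 10 days (1.30 to 1.88) and 1.64 times at 5 days (1.16 to 2.29). Against chromosomes 1 to 5 the ratios were 3.95 (3.31 to 4.69) and 5.27 (3.77 to 7.25). Of the high scoring peaks here 145 of 159 at 10 days and 49 of 50 at 5 days were shared. High scoring peaks were also mostly shared elsewhere. The counts were 401 of 444 and 127 of 133 on chromosomes 11 to 21, and 651 of 768 and 172 of 181 on chromosomes 1 to 5.

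Chromosome 25 had the most high scoring 10 day peaks for its number, 20 of 75 (26.7%, 17.1 to 38.1), or 15.9% without the 33 kb cluster described further on. Chromosomes 27 and 28 had 25 of 143 each (17.5%, 11.6 to 24.7), chromosome 23 had 30 of 201 (14.9%, 10.3 to 20.6), chromosome 22 had 15 of 105 (14.3%, 8.22 to 22.5) and chromosome 26 had 31 of 231 (13.4%, 9.30 to 18.5). Chromosome 24 was below the list with 13 of 208 (6.25%, 3.37 to 10.5), an interval that included 10.0%, and the direction turned with the highest 20% in place of 10%, where its share was 1.09 times that of the list at 10 days and 1.16 times at 5 days. The intervals of chromosomes 23, 25, 27 and 28 lay above the 10.0% of the list. At 5 days the 7 values ran from 6.25% on chromosome 24 to 13% on chromosome 28, and all intervals included the 9.74% of the list.

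**Figure D3:**
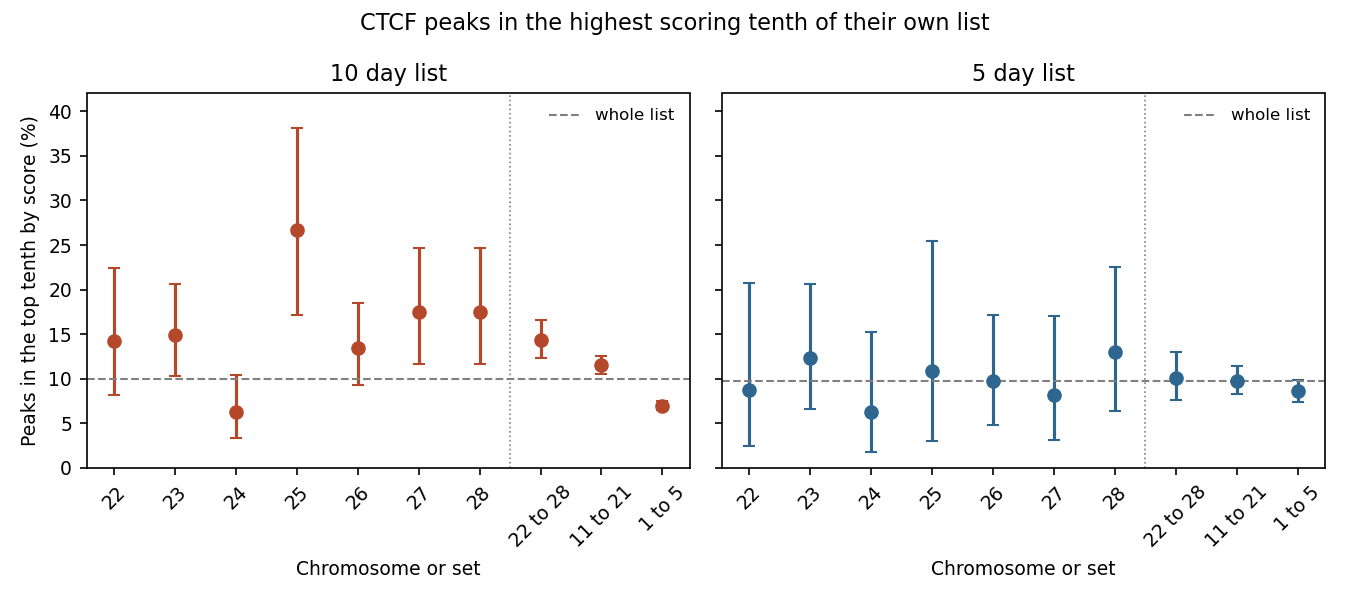
Percentage of peaks that belong to the highest scoring 10% of their own list, for the 10 day list (left) and the 5 day list (right), with exact Clopper-Pearson 95% intervals; the dashed line is the whole list. Chromosome 25 stood highest at 10 days with 26.7%, and all 5 day intervals of single chromosomes crossed the line.

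The highest scoring peak of each chromosome was shared at both ages on all 7. On chromosomes 23, 24 and 27 the same site led both lists. On chromosome 23 it stood at 6041602 to 6042000 with a score of 726 at 10 days, rank 19 of its list, and at 6041605 to 6042003 with 161 at 5 days, rank 44. This was the last peak of chromosome 23 in both lists. On chromosome 24 the leading site was at 4445097 to 4445495 with a score of 113 at 10 days (rank 268), and at 4445033 to 4445431 with 140 at 5 days (rank 54). On chromosome 27 it was at 3468606 to 3469004 with 141 at 10 days (rank 174), and at 3468636 to 3469034 with 126 at 5 days (rank 70).

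On the other 4 chromosomes different sites led the lists. The 10 day leader of chromosome 28, at 4511457 to 4511855 with a score of 275 (rank 77), was the last peak there and had a 5 day peak of score 53 at 91 bp. At the 5 day leader of chromosome 28, 2087029 to 2087427, the 10 day peak scored 78 and the 5 day peak 140 (rank 54), with starts 25 bp apart. On chromosome 26 the 10 day leader was at 3908751 to 3909149 with 120, over a 5 day peak of 97. At the 5 day leader, 4836330 to 4836728, the 10 day peak scored 75 and the 5 day peak 100. Chromosome 22 was led at 10 days by 2214048 to 2214446 with 112, over a 5 day peak of 74. Its 5 day leader was at 1263753 to 1264151, where the 10 day score was 110 and the 5 day score 94. On chromosome 25 the 10 day leader was at 687228 to 687626 with 249, over a 5 day peak of 62. The 5 day leader there was at 1851049 to 1851447, with 78 at 10 days and 73 at 5 days. Leading scores thus ran from 112 to 726 at 10 days and from 73 to 161 at 5 days.

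Unmatched peaks reached lower scores. The highest unmatched 10 day peak of each chromosome scored between 36, on chromosome 22 at 2170234 to 2170632, and 75, on chromosome 25 at 717089 to 717487, where the nearest 5 day peak started 1320 bp away. Between them stood chromosome 24 at 3584275 to 3584673 (53), chromosome 23 at 931813 to 932211 (50), chromosome 26 at 1017826 to 1018224 (46), chromosome 27 at 29946 to 30344 (46) and chromosome 28 at 2926703 to 2927101 (43). The chromosome 27 peak had a 5 day peak of score 51 starting 852 bp away, whereas the chromosome 23 peak had no 5 day peak starting within 127151 bp. The highest unmatched 5 day peaks scored between 33, on chromosome 22 at 2603228 to 2603626, and 62, on chromosome 28 at 2619912 to 2620310. The others were on chromosome 23 at 2855109 to 2855507 (48), chromosome 25 at 118328 to 118726 (48), chromosome 24 at 3245652 to 3246050 (45), chromosome 27 at 3422384 to 3422782 (42) and chromosome 26 at 1631464 to 1631862 (41). None of these 7 had a 10 day peak starting within 1 kb, and the farthest from one was that of chromosome 24, at 65497 bp.

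Along the chromosomes, peaks were counted in 135 bins of 250 kb from the first base, which gave a median of 8 peaks per bin at 10 days (range 0 to 21) and 4 at 5 days (0 to 12). Counts varied more than their mean, with a ratio of variance to mean of 2.86 at 10 days and 2.09 at 5 days, close to the 3.0 and 2.42 of chromosomes 11 to 21. Chromosome 26 was the most even in these bins, with ratios of 1.23 at 10 days and 1.28 at 5 days, and between 3 and 16 peaks per bin at 10 days. This order rests on the bins chosen. At 5 days, with bins of the same width but another first base, chromosome 26 had 1.67 and chromosome 24 had 1.39. At 10 days chromosome 26 stayed lowest with those bins (1.29) and with bins of 100 kb (0.975). With bins of 500 kb it had 2.71 at 10 days, above the 2.15 of chromosome 25. Chromosome 22 was the most uneven at both ages, with 4.45 and 2.73 in the 250 kb bins from the first base. The 2 ages ranked the 135 bins with a Spearman correlation of 0.54, which over so few bins per chromosome ranged from 0.90 on chromosome 25 (8 bins) to 0.10 on chromosome 26 (21 bins). It is a description, because bins share a library and the last bin of each chromosome is partial.

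**Figure D4:**
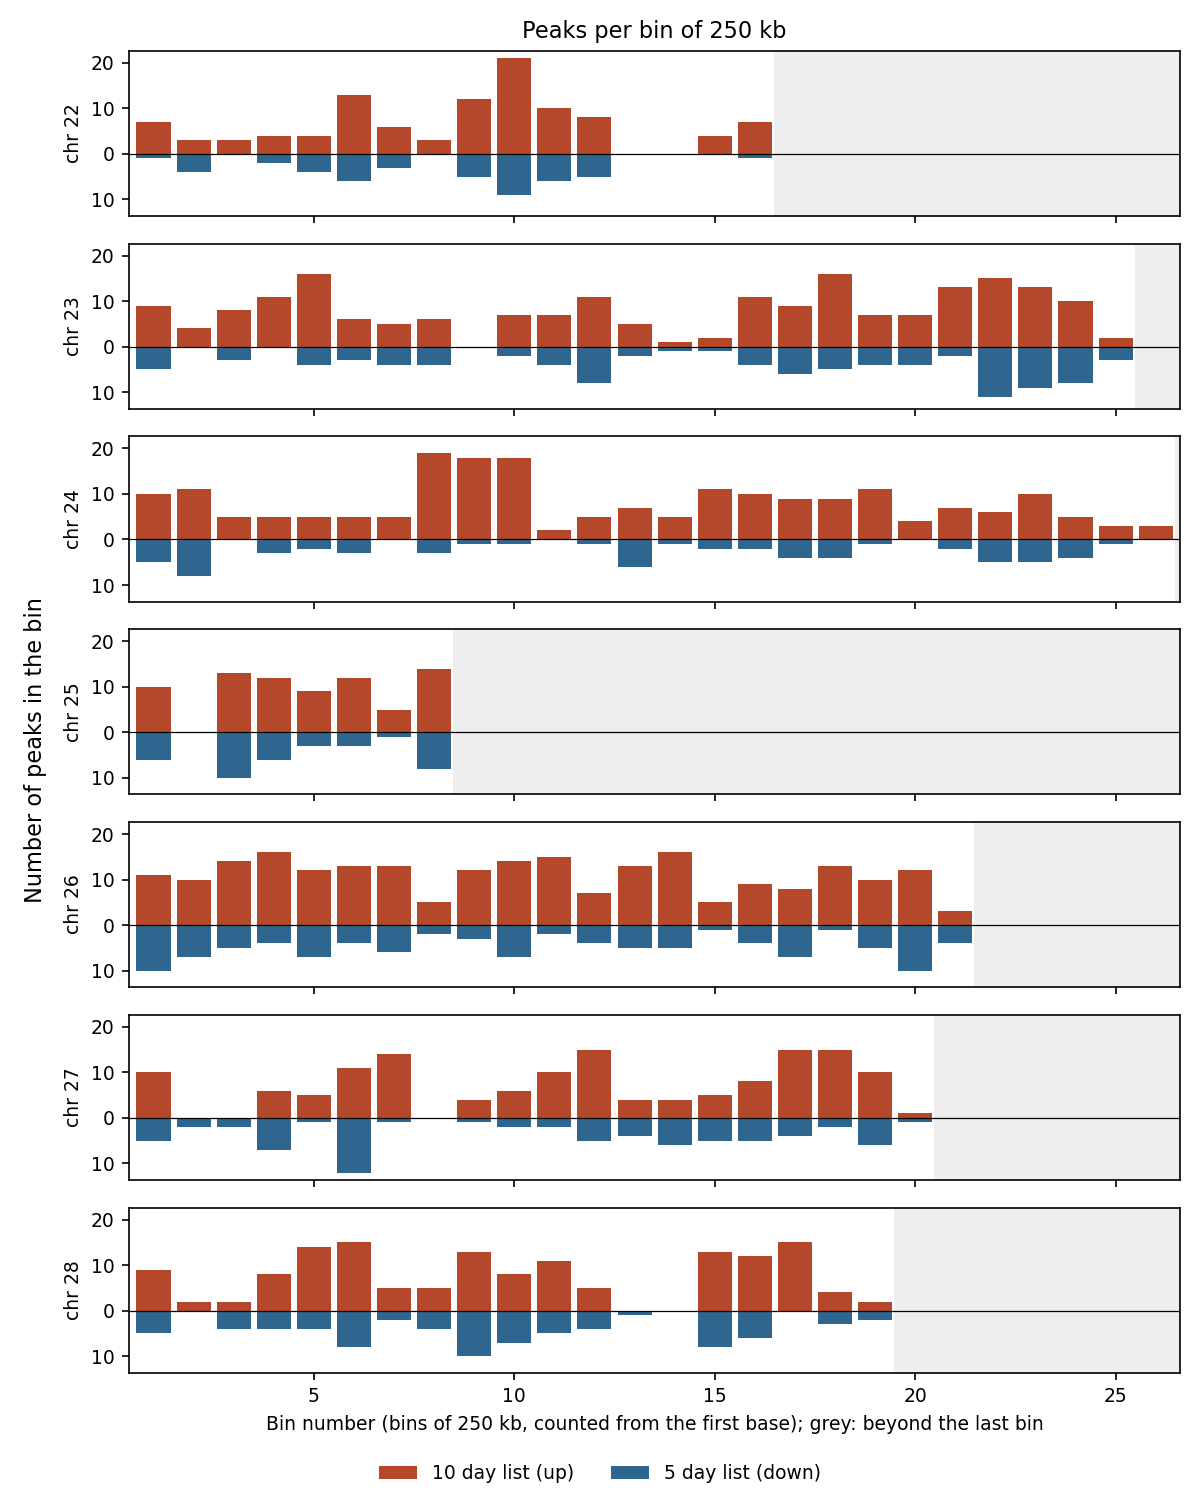
Peaks per 250 kb bin along chromosomes 22 to 28, in bin order from the first base, for the 10 day list (upward bars) and the 5 day list (downward bars). Chromosome 24 shows 3 neighbouring bins with 19, 18 and 18 peaks at 10 days against 3, 1 and 1 at 5 days, and 6 bins across the chromosomes are empty at both ages.

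The bin with the most 10 day peaks, 2250001 to 2500000 of chromosome 22, had 21 peaks in the 10 day list and 9 in the 5 day list, 7 of them shared in each, and it was also the densest 5 day bin of that chromosome. On the other 6 chromosomes different bins led at the 2 ages. On chromosome 24 the densest 10 day bin (1750001 to 2000000) held 19 peaks at 10 days and 3 at 5 days, and on chromosome 25 (1750001 to 2000000) it held 14 and 8. The other 4 had ties for the densest 10 day bin. On chromosome 23 the bins that begin at 1000001 and 4250001 held 16 peaks each at 10 days, and 4 and 5 at 5 days. On chromosome 26 those at 750001 and 3250001 held 16 each at 10 days, and also 4 and 5 at 5 days. On chromosome 27 those at 2750001, 4000001 and 4250001 held 15 each at 10 days, and 5, 4 and 2 at 5 days. On chromosome 28 those at 1250001 and 4000001 held 15 each at 10 days, and 8 and 0 at 5 days, so that equally dense 10 day bins differed in their 5 day number. The bins with the most 5 day peaks were other ones. On chromosome 27 (1250001 to 1500000) there were 11 peaks at 10 days and 12 at 5 days, on chromosome 23 (5250001 to 5500000) 15 and 11, and on chromosome 25 (500001 to 750000) 13 and 10. On chromosome 26, with a tie, there were 11 at 10 days and 10 at 5 days (1 to 250000) and 12 and 10 (4750001 to 5000000), on chromosome 28 (2000001 to 2250000) 13 and 10, and on chromosome 24 (250001 to 500000) 11 and 8. The chromosome 27 bin was the one among these where the 10 day list held fewer peaks than the 5 day list.

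The high ratio between the ages on chromosome 24 was lower without 1 stretch, chosen after its values were seen. The stretch takes in the bins with the most 10 day peaks of that chromosome, so a lower ratio without it followed from the choice. The values without it are a description only. Between 1750001 and 2500000 the 10 day list had 55 peaks and the 5 day list 5, which is 73.3 and 6.67 per Mb. Outside it chromosome 24 had 27.2 peaks per Mb at 10 days and 10.5 at 5 days. Of the 55 peaks 1 was shared, their median score of 24 was below the list median of 25, the highest was 38, and none was in the highest 10%. Over the whole 10 day list, 2.84% of peaks with a score of 22 were shared, 3.19% with 23 and 5.29% with 24 to 26. The shares were 10.9% for scores of 27 to 30 and 55.2% for 31 and more, so few shared peaks go with scores this low. Without the stretch chromosome 24 had 153 peaks at 10 days and 59 at 5 days, a ratio of 2.59 (1.91 to 3.56), which was 1.25 times that of the other 6 chromosomes (0.899 to 1.76), and 19.6% of its 10 day peaks were shared.

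Of the 20 high scoring 10 day peaks of chromosome 25, 10 lay within 33 kb, from 687001 to 720000, a place also chosen after the values were seen. The 10 day list had 12 peaks in it, 9 of them shared, and the 5 day list had 10, all shared. In order along the chromosome the 10 day scores were 249, 170, 198, 24, 23, 105, 162, 109, 142, 75, 76 and 41, and 10 of these 12 peaks were in the highest 10% of the list. The 5 day scores were 62, 26, 60, 17, 25, 23, 16, 26, 16 and 54, of which 2 were in the highest 10%. The median percentile was 98.5 at 10 days and 56.6 at 5 days, and the 5 day percentiles were spread from 28.6 to 91.9. A higher percentile at 10 days was not particular to this place. Over the 253 pairs of chromosomes 22 to 28 the median percentiles were 92.0 at 10 days and 74.2 at 5 days. The 10 day percentile was the higher one in 206 pairs and the lower one in 47. These percentiles depend on the lists: 15.8% of 21358 peaks were shared at 10 days and 57.6% of 5830 at 5 days. A shared peak thus stands above a larger portion of unmatched, mostly lower scoring peaks in the 10 day list. The difference is therefore no measure of a change in binding. Without the cluster chromosome 25 had 10 of 63 peaks in the highest 10% at 10 days (15.9%, 7.88 to 27.3), an interval that included 10.0%. To its left lay the longest stretch of that chromosome without a peak.

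Empty bins were more frequent here than on chromosomes 11 to 21 at 10 days, and less frequent at 5 days. At 10 days 9 of the 135 bins were empty (6.67%), none of them on chromosomes 24 and 26. Chromosomes 11 to 21 had 2.43% empty and chromosomes 1 to 5 had 4.43%. At 5 days 18 of the bins here were empty (13.3%), against 26.7% and 57.3%. The largest distance between consecutive starts at 10 days was 816938 bp here. It was 503718 bp on chromosomes 11 to 21 and 1625520 bp on chromosomes 1 to 5. In the same order the 5 day values were 1040555, 4757948 and 6876631 bp. The longest stretch without a peak of either list measured 562 kb on chromosome 22 (2951288 to 3513000), 537 kb on chromosome 23 (1866521 to 2403371), 532 kb on chromosome 28 (3023219 to 3555702), 506 kb on chromosome 25 (180974 to 687225), 400.2 kb on chromosome 27 (1645204 to 2045374), 199 kb on chromosome 24 (2666094 to 2865172) and 98.5 kb on chromosome 26 (2029281 to 2127828). The chromosome 25 stretch took up 25.3% of the chromosome as spanned by peaks, and the chromosome 26 stretch 1.93%. Assembly gaps were not used here, so whether these stretches lack sequence was not tested.

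Some stretches were empty in 1 list alone. On chromosome 27 the 10 day list had no peak from 42975 to 859513, which is 817 kb and the longest such stretch of that list on the 7 chromosomes. The 5 day list had 4 peaks in it, at starts of 362168, 372296, 577443 and 703813, with scores of 18, 18, 13 and 19, none above the median of 22 of their list. On chromosome 28 the longest 10 day stretch, from 2965750 to 3555702, contained 1 peak at 5 days, with a score of 50. The longest stretch without a 5 day peak was on chromosome 22, from 2873660 to 3913815, where the 10 day list had 10 peaks scoring up to 36. On chromosome 24 the 10 day list had 20 peaks scoring up to 33 between 2279773 and 2920535, where the 5 day list was empty. This place overlaps the dense stretch of chromosome 24 described above, which ends at 2500000, and most of these peaks belong to both.

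Consecutive peaks of the 10 day list on chromosomes 22 to 28 had starts separated by a median of 15473 bp (quartiles 5396 and 37551), against 19883 bp on chromosomes 11 to 21 and 35451 bp on chromosomes 1 to 5. In the 5 day list the median was 31506.5 bp (10499.5 to 71653), against 45887 and 100932 bp. Chromosome 25 had the shortest median spacing at both ages, with 9723.5 bp at 10 days and 16978.5 bp at 5 days. Its 10 day interval (7074 to 15542) overlapped those of all the other 6, among them chromosome 27 (8563 to 16010). Its 5 day interval (4863 to 29899) overlapped all the others, among them chromosome 22 (12805 to 37229), except that of chromosome 24 (39683 to 79823). At 10 days the other 6 ranged from 12102 bp on chromosome 27 to 17284 bp on chromosome 24 and 17302.5 bp on chromosome 26, and with peaks under 1 kb apart merged chromosome 22 was the widest with 20200 bp, against 17997 bp on chromosome 26. Chromosome 26, the densest of the 7, was thus not the most closely spaced by its median. That median was 0.795 of its mean spacing, against 0.360 on chromosomes 25 and 27. The largest 10 day distance was 98987 bp on chromosome 26, 506653 bp on chromosome 25 and 816938 bp on chromosome 27. At 5 days chromosome 24 was the widest, with 63079 bp.

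Starts less than 1 kb apart made up 53 of 1099 distances at 10 days (4.82%) and 22 of 490 at 5 days (4.49%). Chromosomes 11 to 21 had 3.76% and 3.63%, and chromosomes 1 to 5 had 2.82% and 3.42%. At 5 days 5 of the 36 distances of chromosome 25 were this short (13.9%), the highest share among the 7 at that age. At 10 days the highest share was that of chromosome 22, 8 of 104 (7.69%), and the lowest that of chromosome 26, 8 of 230 (3.48%).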

How the data were processed

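CTCF chromatin immunoprecipitation was sequenced on an Illumina Genome Analyzer from 1 library per age, per the labels' protocols. The authors deposited 1 list per library with 6 columns, no header and a whole-number score per peak. Not given in the sources used here are the aligner, peak caller, threshold, control library, genome build and meaning of the score; depth is unknown. Sequence lengths, assembly gaps and mappability were not used here. Positions count the first base as 1.

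Overlap needed at least 1 bp. Intervals at 95% are exact Poisson for densities, Clopper-Pearson for shares and conditional binomial for ratios. Peaks lie in the bin of their midpoint. The functions were tested on simulated data. The highest scoring, highest shared and highest unmatched peak of each list, the fullest bin of each list and the longest empty stretch of each chromosome were named; other places are marked. The chromosomes, sets and rules were chosen with earlier results of these data known. Alternatives changed score limit, length, bin, rank, spacing and overlap rules. Scripts ran in Python 3.11.15 with scipy 1.17.1, pandas 2.3.3 and numpy 2.4.6, and figures were drawn with matplotlib 3.10.9.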

Additional observations from a re-analysis of the deposited data

How the results depend on the processing

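Of 47 alternative values for chromosomes 22 to 28 as a set, 34 stayed within the interval of the main value, or, where none was computed, within 1.5 times it, and of 316 for single chromosomes 247 did. Keeping scores above the list median left 562 peaks at 10 days and 235 at 5 days, and gave 10 day density ratios of 1.34 to chromosomes 11 to 21 and 2.38 to chromosomes 1 to 5. With the 10 day list limited to 5809 peaks, 381 lay here, and these density ratios were 1.44 and 2.85. The ratio of 10 day to 5 day peak number then turned below 1, to 0.767 for the 7 together and to 0.783, 0.649, 0.953, 0.838, 0.757, 0.822 and 0.675 for chromosomes 22 to 28 in number order; the whole lists stand at nearly equal length by construction, which does not fix the ratio of a single set. In that list 53.3% of the 10 day peaks here were shared (whole list 45.3%) and 41.0% of the 5 day peaks (45.5%). Widening peaks by 500 bp gave 27.1% (17.6%) and 56.9% (62.1%). The 10 day median percentile was 60.3 among numbered chromosomes only, where the same median score of 26 was ranked in a list without the other sequences. Chosen after seeing the data, 20 score parts in place of 5 gave observed minus expected shares of 2.78 points at 10 days and -5.38 points at 5 days, and leaving out the dense stretch of chromosome 24 gave shares of 24.2% at 10 days and 51.8% at 5 days. No paired analysis was possible because no replicate exists at either age, and none could be left out. Unknown depth limits any statement that a peak is missing from a list.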

Other observations

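The outermost peaks of the chromosomes were looked at after the values were seen. The last peak of chromosome 23 scored 726 at 10 days and 161 at 5 days, and the last peak of chromosome 28 scored 275 and 53. On the other 5 of the 7 chromosomes the last peaks were not in the highest scoring 10% of their list at either age. Among chromosomes 1 to 21, the last peak was in the highest scoring 10% on 3 of 21 at 10 days and on 2 of 21 at 5 days. The first peaks of chromosomes 22 to 28 scored 22 to 38 at 10 days and 13 to 68 at 5 days. On chromosome 11 the first peak scored 586 at 10 days and 136 at 5 days.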
